A study of Mus musculus with 51 samples.

Results

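The collagen genes of the mouse lung were taken here as all genes on the array whose symbol reads Col, a number, a and a number, with nothing after it. This gave 42 genes of 19505 gene symbols in the table, each measured by 1 of 22206 probe sets. They were set in 7 classes, largely by the structure their chains build: 11 fibrillar chains, 6 basement membrane chains, 7 chains of beaded filaments and their relatives, 3 network-forming short chains, 9 fibril-associated chains, 4 transmembrane chains and 2 multiplexins. The fibril-associated class as listed here includes Col26a1, which is not usually counted in it. By mean level over the arrays, 22 of the genes lay above and 20 below the median of all probe sets.

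Expression was measured on arrays of whole lung from male mice aged 6 to 8 weeks, after a model of isocyanate asthma. Methylene diphenyl diisocyanate (MDI) is a monomer used to make polyurethane and can sensitize the airways. In all 8 groups the mice were sensitized through the skin with 1% MDI in acetone, controls included, so each control is a sensitized animal. The exposed groups then received MDI reacted with glutathione (MDI-GSH) through the nose under isoflurane. The control groups received a solution in which MDI and glutathione had been reacted separately. Lungs were perfused, lavaged and collected 48 h later than the final dose.

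The groups were BALB/c mice (3 control and 3 MDI arrays), C57BL/6 mice (6 control and 13 MDI arrays), C57BL/6 mice given crofelemer (5 control and 3 MDI arrays) and B-cell deficient mice of the strain B6.129S2-Ighmtm1Cgn/J (9 control and 7 MDI arrays). Crofelemer is a chloride channel inhibitor and was given through the nose at 4 mg/kg before each exposure. The labels of 4 crofelemer control arrays name crofelemer alone as the exposure, and those of the fifth give no dose. B-cell deficient mice carry a targeted disruption of the immunoglobulin heavy chain mu gene in all cells, so they lack mature B cells in every organ. The array called C57BL/6 MDI replicate 14 has 1 label that reads control against others that read MDI, and it was kept with the MDI arrays. Another 2 arrays carry labels that contradict each other on crofelemer and entered no comparison.

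Collagens are the main structural proteins of the extracellular matrix. Chains of a type wind into a triple helix, are secreted as procollagen, trimmed, and crosslinked outside the cell. Fibrillar types I, III and V give the lung interstitium and the airway wall their tensile strength, type IV forms the sheet of the alveolar and vascular basement membranes, and type VI forms beaded filaments that link cells to fibrils. In lung, fibroblasts and smooth muscle cells make most fibrillar and type VI collagen, while endothelium and epithelium contribute type IV, and airway wall collagen deposition is a known feature of chronic asthma.

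The 250 bases upstream of the annotated start are shown for 4 genes that turn up together in the results below: Col1a2 and Col3a1, fibrillar chains, and Col6a1 and Col6a2, which assemble with each other in type VI collagen. They come from RefSeq promoter windows on build GRCm38.p6, and capitals mark each match, on either strand, to the CCAAT box (searched as CCAAT), to a TATA box (searched as TATAAA) or to a GC box that Sp1 can bind (searched as GGGCGG).
Col1a2: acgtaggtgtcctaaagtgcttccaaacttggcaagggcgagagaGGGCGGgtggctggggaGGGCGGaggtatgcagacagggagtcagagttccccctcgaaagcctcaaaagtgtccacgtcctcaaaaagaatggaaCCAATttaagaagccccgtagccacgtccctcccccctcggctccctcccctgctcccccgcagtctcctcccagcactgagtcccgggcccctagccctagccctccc
Col3a1: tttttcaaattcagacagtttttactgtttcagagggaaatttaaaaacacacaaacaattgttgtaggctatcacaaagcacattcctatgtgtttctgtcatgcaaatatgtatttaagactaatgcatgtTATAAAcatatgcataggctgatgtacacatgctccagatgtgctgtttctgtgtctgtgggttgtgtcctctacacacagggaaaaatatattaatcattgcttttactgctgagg
Col6a1: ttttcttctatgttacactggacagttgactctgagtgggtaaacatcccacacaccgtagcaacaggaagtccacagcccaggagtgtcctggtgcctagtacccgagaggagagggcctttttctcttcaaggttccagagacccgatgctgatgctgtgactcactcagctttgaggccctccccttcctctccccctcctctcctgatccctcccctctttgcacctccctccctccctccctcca
Col6a2: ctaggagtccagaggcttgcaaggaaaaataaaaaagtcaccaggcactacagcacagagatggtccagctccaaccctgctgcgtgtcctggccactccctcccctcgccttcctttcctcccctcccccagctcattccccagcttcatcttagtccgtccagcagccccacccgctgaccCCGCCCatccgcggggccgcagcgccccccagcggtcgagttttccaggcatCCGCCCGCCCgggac
The Col1a2 window lies at chr6:4505368-4505617 on the plus strand and the Col3a1 window at chr1:45311288-45311537 on the plus strand. The Col6a1 window lies at chr10:76726045-76726294 on the minus strand and the Col6a2 window, 1 of 2 for this gene, at chr10:76623405-76623654 on the minus strand. The Col1a2 window holds 1 CCAAT, beginning 109 bases before the start, and 2 GGGCGG. The Col3a1 window holds 1 TATAAA, the Col6a1 window none of the 3 motifs, and the Col6a2 window 3 matches to GGGCGG of which a pair shares 2 bases. RefSeq windows matched 34 of the 42 genes, with 37 windows in all. CCAAT was found in 12 of the 37 (32.4%) and in 33.8% of 32851 windows of all genes, TATAAA in 5 (13.5%) against 12.4%, and GGGCGG in 21 (56.8%) against 32.7%. These are matches of letters, given as a description.

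The deposited values are on a log2 scale, and a difference of 1 is a 2-fold difference on that scale. Mean signals per array ran from 7.37 to 7.40 for BALB/c, from 7.48 to 7.51 for C57BL/6, from 7.43 to 7.48 for crofelemer-treated C57BL/6, and from 8.02 to 8.07 for B-cell deficient mice. The sets may therefore have been normalized apart, so levels are set side by side across strains without a test. In B-cell deficient mice, 4 control arrays (replicates 1, 2, 5 and 6) had a spread over probe sets (SD) under 3, narrower than all arrays of the MDI group. The submission records fell into 3 blocks of consecutive records, which the labels do not name as batches: all 9 B-cell deficient controls lay in block 2, whereas block 1 held 4 of their MDI counterparts and block 2 held 3. As a check of the genotype, Cd79a, a part of the B-cell receptor, read 4.5 to 5.84 on the B-cell deficient arrays and 9.23 to 11.79 on the C57BL/6 arrays without crofelemer. The heavy chain gene itself was not analysed here. Epithelial markers of the lung were high on all arrays, with a mean over 4 alveolar type 2 markers between 18.29 and 18.97. Nothing in the labels says that the arrays of a group came from separate cages or cohorts, so p-values measure the spread between these samples. Since whole tissue was measured, fewer cells of a type and less RNA per cell cannot be told apart.

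The comparison of MDI with control in C57BL/6 mice asked how the sensitized lung responds to MDI in the airways. Of the fibrillar chains 5 of 11 rose after MDI, and of the beaded filament chains with their relatives 4 of 7, led by Col6a5, Col3a1 and Col1a1 at 2.42-fold to 3.65-fold. Among the 42 collagen genes, 10 rose and 1 fell at an adjusted p under 0.05 in limma, which is 23.8% higher and 2.38% lower, or 26.2% in all, against 14.5% of all probe sets. Of all 22206 probe sets, 5.3% rose and 9.23% fell, so that 36.5% of the called probe sets were higher. That split was 49.4% after centring the arrays on their median and 65.2% after centring and scaling them, where 11 collagen genes rose and 1 fell and 10.3% of all probe sets were called. The median difference of the 42 genes was 0.14 against 0.01 over all probe sets, and 32 of the 42 lay above 0. Among all probe sets, those above the median level were called more often (22.2%) than those below it (6.87%).

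Of the 11 fibrillar chains, 5 rose in C57BL/6 mice and none fell. Col1a1, the major chain of type I collagen, read 10.38, 11.42, 10.82, 11.04, 11.06 and 10.51 in the 6 controls and from 11.29 to 13.13, with a median of 12.25, in the 13 MDI arrays. Control replicate 2 was the highest control, and it overlapped the lower end of the MDI arrays. The difference was 1.27 ± 0.25 (SE, adjusted p = 0.000243), or 2.42-fold. Col3a1, the chain of type III collagen, read 11.96, 13.74, 12.74, 12.83, 12.81 and 12.44 in controls and 13.54 to 15.41 (median 14.39) after MDI, and control replicate 2 alone reached into the MDI range. Its difference was 1.58 ± 0.21 (adjusted p = 6.62e-07), or 2.99-fold. Col5a2, a chain of the type V collagen found inside type I fibrils, read 5.61, 6.77, 6.1, 6.75, 6.19 and 6.56 in controls and 6.49 to 8.38 (median 7.26) after MDI, and the groups overlapped. The difference was 0.97 ± 0.24 (adjusted p = 0.00357).

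The other fibrillar rises were Col1a2, the partner chain of Col1a1, and Col24a1, which are named after their values were seen. Col1a2 differed by 0.77 ± 0.20 (adjusted p = 0.00591), or 1.7-fold. Col24a1, a chain of low level here, read 3.25 to 3.57 in the 6 controls and 3.59 to 5.09 in the 13 MDI arrays, so that all MDI arrays lay above all controls, and differed by 0.76 ± 0.17 (adjusted p = 0.00112). Col5a1, another chain of type V, did not pass the test, at -0.11 ± 0.16 (adjusted p = 0.705), and neither did Col5a3, also of type V.

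**Figure D1:**
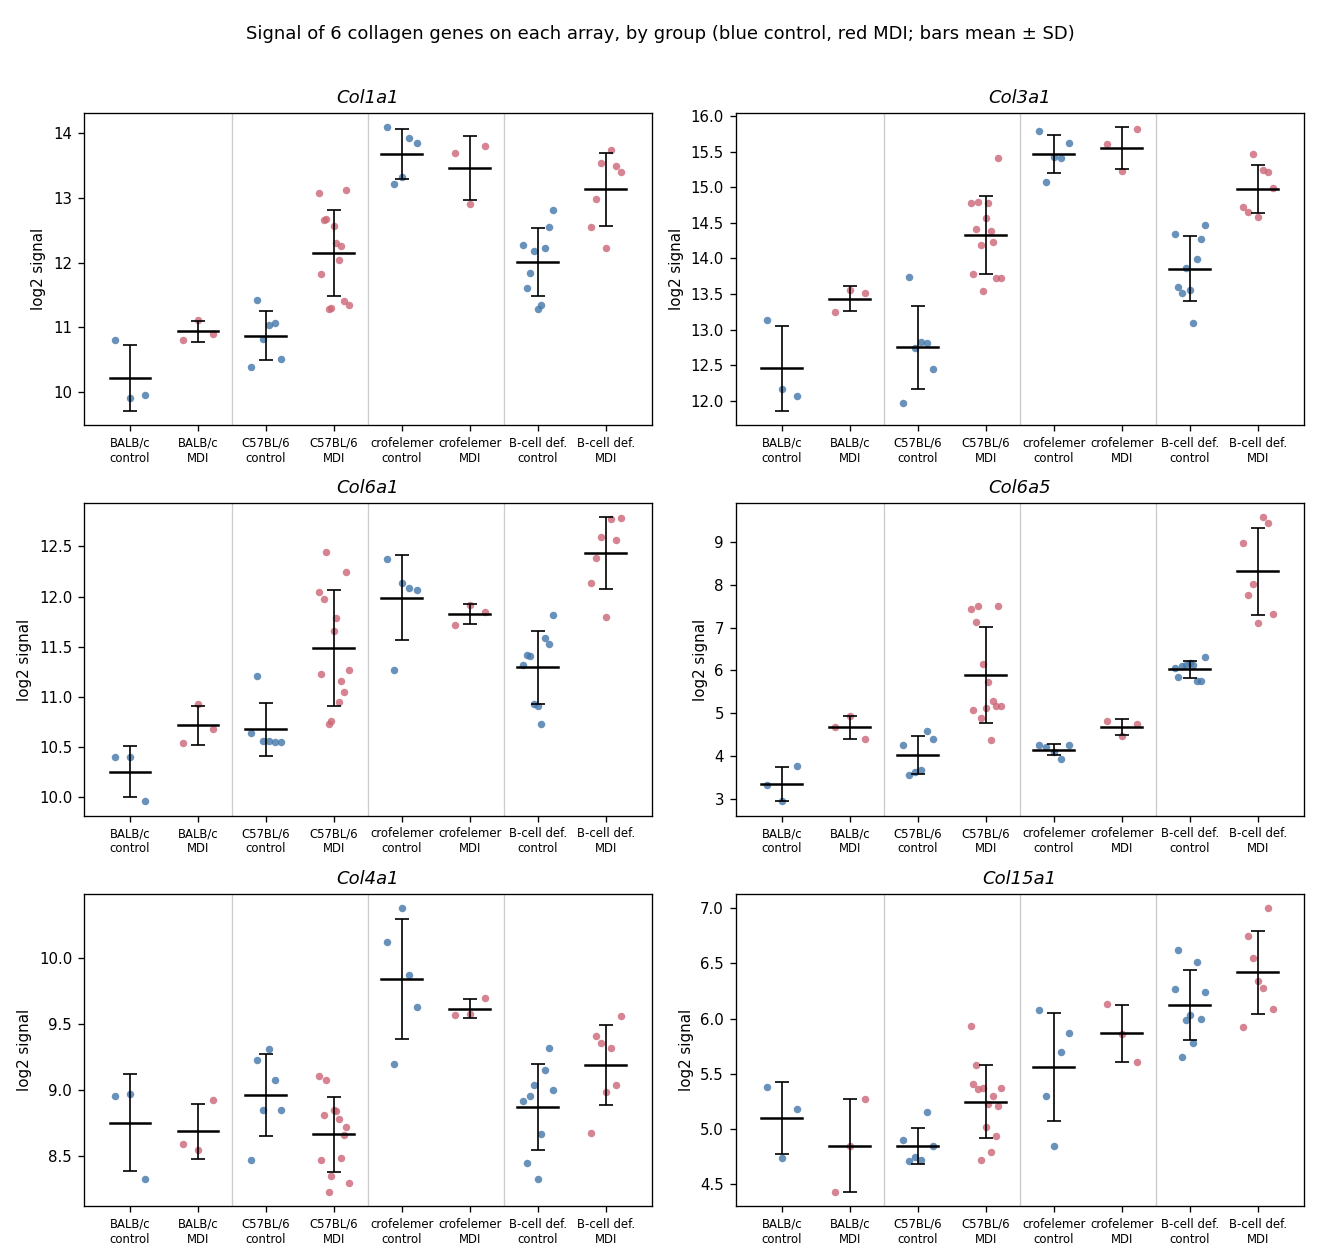
Deposited log2 value of 6 collagen genes on each of the 49 arrays (y axis) in the 8 groups (x axis), with blue points for control and red points for MDI arrays and bars for the mean and SD of a group. In C57BL/6 mice Col3a1 read 11.96 to 13.74 in controls and 13.54 to 15.41 after MDI, and with crofelemer both groups sat at 15.07 to 15.82.

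Of the 7 chains of beaded filaments and relatives, 4 rose in C57BL/6 mice. Col6a1, which assembles with Col6a2 and Col6a3 into the type VI monomer, read 10.64, 11.21, 10.56, 10.56, 10.55 and 10.55 in controls and 10.73 to 12.44 (median 11.27) after MDI. All controls but replicate 2 lay below all MDI arrays. The difference was 0.81 ± 0.19 (adjusted p = 0.00277), or 1.75-fold. Col6a2 read 10.48, 11.09, 10.68, 10.3, 10.61 and 10.24 in controls and 10.79 to 12.56 (median 11.41) after MDI, with a difference of 0.97 ± 0.21 (adjusted p = 0.0012). Again control replicate 2 was the only control within the MDI range. Col6a3, named after its values were seen, differed by 0.59 ± 0.20 (adjusted p = 0.0438).

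Col6a5, an alternative chain of type VI collagen that can take the place of Col6a3, had the largest difference of the 42 genes in C57BL/6 mice. It read 4.27, 3.55, 3.64, 3.68, 4.58 and 4.41 in controls and 4.38 to 7.51 (median 5.28) after MDI. The groups overlapped only between 4.38 and 4.58. The difference was 1.87 ± 0.34 (adjusted p = 0.00011), or 3.65-fold. Col6a6, a close relative, differed by -0.09 ± 0.10 (adjusted p = 0.618).

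Of the 6 basement membrane chains, 1 rose and 1 fell. Col4a1, a chain of the ubiquitous type IV network, read 8.47, 9.23, 8.85, 9.31, 9.08 and 8.85 in C57BL/6 controls and 8.23 to 9.11 (median 8.72) after MDI, a difference of -0.30 ± 0.15 (adjusted p = 0.204). Col4a5, a chain of the specialised network that also holds Col4a3 and Col4a4, was the only member to fall: 7.43, 7.26, 7.53, 7.43, 7.63 and 7.52 in controls against 6.63 to 7.61 (median 7.07), a difference of -0.38 ± 0.12 (adjusted p = 0.0218). This call did not hold without control replicate 5 (-0.34, adjusted p = 0.061), nor after quantile normalization (-0.30, adjusted p = 0.0825). Col4a6, the partner of Col4a5 in smooth muscle basement membranes, rose by 0.47 ± 0.11 (adjusted p = 0.00284) and is named after its values were seen. None of the 3 network-forming, 9 fibril-associated, 4 transmembrane or 2 multiplexin chains was called in this comparison. Col15a1, a multiplexin of vascular and muscle basement membrane zones, read 4.71 to 5.15 in controls and 4.72 to 5.93 after MDI (0.40 ± 0.16, adjusted p = 0.0903).

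Within record block 1 alone, which held 4 controls and 12 MDI arrays, 8 members were called (all of them higher), against 9.42% of all probe sets called in that block. In that block Col1a1 differed by 1.30, Col3a1 by 1.57, Col6a1 by 0.76, Col6a5 by 2.17 and Col4a5, not called there, by -0.30. Block 3 held 2 controls and 1 MDI array, which was replicate 14, the array with 1 label that reads control. With 1 MDI array, only differences are given for that block. There Col1a1 differed by 0.565, Col3a1 by 1.095, Col6a1 by 0.72, Col6a5 by 0.685 and Col4a5 by -0.695.

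In B-cell deficient mice 11 collagen genes rose and 8 fell after MDI. Col6a5 again had the largest difference, 4.87-fold, and Col6a1, Col18a1, Col3a1 and Col1a1 followed at 2.17-fold to 2.2-fold. The rises were 26.2% of the 42 genes and the falls 19%. Over all probe sets 16.2% rose and 20.7% fell, so the share of falls among the collagen genes lay near that of the whole table. Of all called probe sets 43.9% were higher, and 32.5% after centring and scaling, where 12 collagen genes rose and 11 fell and 44.7% of all probe sets were called. The share called in either direction was 45.2% against 36.9%. The median difference was -0.03 for the 42 genes and -0.06 over all probe sets. C57BL/6 and B-cell deficient mice share no array in these comparisons. Of the collagen genes that rose, 9 did so in both, which is 90% of the 10 in C57BL/6 and 81.8% of the 11 in B-cell deficient mice. Over all probe sets 732 rose in both, 62.2% and 20.3% of the 2 lists. Of the collagen genes that fell, 1 in C57BL/6 and 8 in B-cell deficient mice, none fell in both. Over all probe sets 647 fell in both, 31.6% and 14.1% of the 2 lists, and a single fall in C57BL/6 mice leaves nothing to read from that 0.

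Of the fibrillar chains, 5 rose and 1 fell in B-cell deficient mice. Col1a1 read 11.29 to 12.81 (median 12.18) in the 9 controls and 12.23 to 13.74 (median 13.4) in the 7 MDI arrays, which overlapped in part. It differed by 1.12 ± 0.25 (adjusted p = 0.000476). Col3a1 read 13.09 to 14.47 (median 13.86) in controls and 14.59 to 15.47 (median 14.99) after MDI, so all MDI arrays lay above all controls. It differed by 1.13 ± 0.22 (adjusted p = 7.12e-05), and by 0.51 (adjusted p = 0.0557) when arrays were centred and scaled to a common spread. Col1a2, Col5a2 and Col24a1 rose by 0.93 ± 0.20, 0.97 ± 0.24 and 0.45 ± 0.17.

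Of the 7 beaded filament chains and relatives, 4 rose (Col6a1, Col6a2, Col6a3 and Col6a5), 2 fell (Col6a4 and Col28a1) and Col6a6 was not called. Col6a1 read 10.73 to 11.82 (median 11.41) in controls and 11.8 to 12.78 (median 12.56) after MDI, overlapping only between 11.8 and 11.82, and differed by 1.14 ± 0.20 (adjusted p = 1.46e-05). Col6a5 read 5.75 to 6.31 (median 6.1) in controls and 7.11 to 9.57 (median 8.01) after MDI, without overlap, and differed by 2.28 ± 0.35 (adjusted p = 1.46e-06). Col6a2 and Col6a3 differed by 0.99 ± 0.22 and 0.64 ± 0.21.

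Col18a1 and Col14a1 rose in B-cell deficient mice and were not called in C57BL/6 mice. Col18a1, the multiplexin that is the source of the endostatin fragment, read 6.98 to 8.36 (median 7.95) in controls and 8.38 to 9.49 (median 9.03) after MDI, without overlap, and differed by 1.14 ± 0.21 (adjusted p = 3.81e-05). Col14a1, a fibril-associated chain, read 7.76 to 8.15 in controls and 8.32 to 9.11 after MDI and differed by 0.71 ± 0.13 (adjusted p = 2.44e-05). It is named after its values were seen. The difference between the genotypes in the effect of MDI did not pass the test for either, at 0.69 ± 0.29 (adjusted p = 0.0864) for Col18a1 and 0.38 ± 0.18 (adjusted p = 0.126) for Col14a1. Col4a1 read 8.33 to 9.32 in controls and 8.68 to 9.56 after MDI (0.32 ± 0.16, adjusted p = 0.0966), and Col15a1 5.65 to 6.62 and 5.92 to 7.00 (0.30 ± 0.17, adjusted p = 0.157). Col15a1 was called after quantile normalization (0.44, adjusted p = 0.0285), array weights (0.36, adjusted p = 0.0478) and centring with scaling (0.38, adjusted p = 0.0462).

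The falls in B-cell deficient mice came in several classes. Below the median level of all probe sets, 4 of 20 collagen genes fell (20%), fewer than the 28.4% of all probe sets there. Above that level 4 of 22 fell (18.2%), against 13% of all probe sets. Col6a4, a further alternative type VI chain, read 5.47 to 6.58 (median 5.74) in controls and 4.9 to 5.56 (median 5.27) after MDI (-0.69 ± 0.16, adjusted p = 0.000924). Col9a3, a chain of the fibril-associated collagen of cartilage, read 7.68 to 9.03 (median 8.19) and 7.32 to 7.87 (median 7.6), a difference of -0.66 ± 0.18 (adjusted p = 0.00335). Col2a1, the main fibrillar chain of cartilage, read 5.4 to 6.34 (median 5.8) and 4.78 to 5.75 (median 5.23), a difference of -0.60 ± 0.16 (adjusted p = 0.00217). In these 3 genes the groups overlapped at the edges.

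Col4a3, a chain of the alveolar basement membrane, read 14.28 to 14.54 (median 14.5) in controls and 12.94 to 14.29 (median 13.94) after MDI (-0.59 ± 0.19, adjusted p = 0.013), and without MDI replicate 6 the difference was -0.44 (adjusted p = 0.0658). Col28a1 read 8.6 to 9.33 (median 9.04) in controls and 8.31 to 8.48 (median 8.44) after MDI, so all MDI arrays lay below all controls (-0.54 ± 0.11, adjusted p = 0.00011). Col23a1, Col17a1 and Col22a1 made up the 8, at -0.41 ± 0.13, -0.33 ± 0.12 and -0.39 ± 0.16, and are named after their values were seen.

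Without the 4 narrow control arrays, 10 members were called in place of 19, while the share of all probe sets called went from 36.9% to 17%. Among those not called then were Col6a4 (-0.32, adjusted p = 0.18), Col9a3 (-0.29, adjusted p = 0.281), Col2a1 (-0.43, adjusted p = 0.0847) and Col4a3 (-0.59, adjusted p = 0.0686). Col28a1 was called, at -0.35 (adjusted p = 0.0309), as were Col1a1 at 0.81 (adjusted p = 0.04), Col3a1 at 0.96 (adjusted p = 0.00535), Col6a1 at 0.98 (adjusted p = 0.00217) and Col6a5 at 2.30 (adjusted p = 0.000113). Within record block 2 alone, 13 members were called, 10 higher and 3 lower, against 19.6% of all probe sets. There Col1a1 differed by 1.53, Col3a1 by 1.29, Col6a1 by 1.41, Col6a5 by 2.75 and Col28a1 by -0.58, while Col2a1 (-0.47, adjusted p = 0.0824) and Col6a4 (-0.59, adjusted p = 0.0922) were not called.

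Markers of neighbouring tissues fell in the same comparison, in which 20.7% of all probe sets fell and 28.4% of those below the median level. Of 8 airway cartilage markers, 5 fell in B-cell deficient mice, and their mean log2 level on an array ran from 5.86 to 6.24 in controls and from 5.66 to 6.04 after MDI. Of 5 squamous epithelium markers all 5 fell, from 5.46 to 10.47 in controls to 4.05 to 7.10 after MDI, and of 6 skeletal muscle markers 4 fell, from 6.36 to 9.94 to 5.49 to 7.70. Their part in the falls of Col2a1, Col9a3 and the other genes was not tested. In C57BL/6 mice 1 of 8 cartilage markers and none of the squamous or skeletal markers was called lower, against 9.23% of all probe sets.

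**Figure D2:**
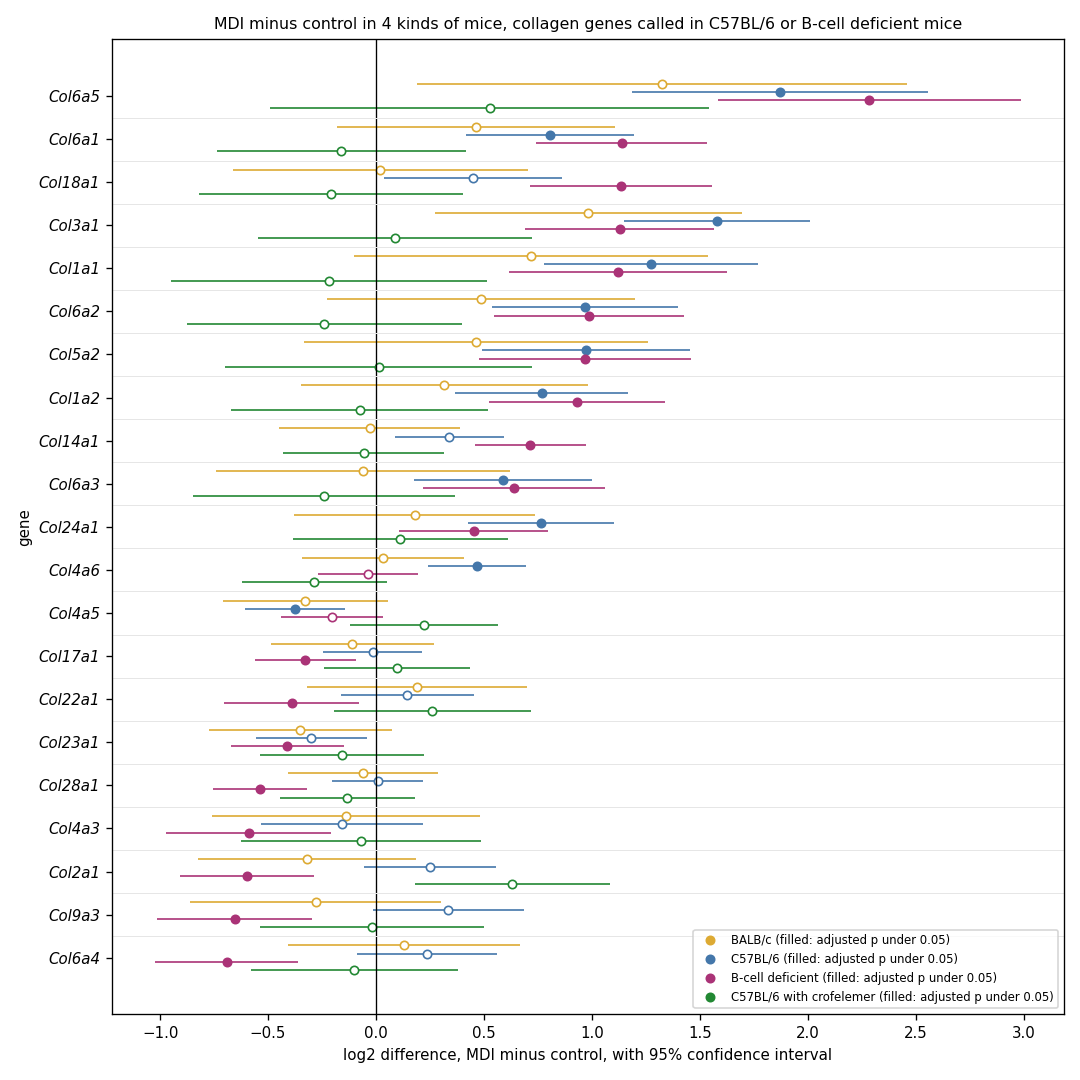
Difference between MDI and control (x axis, log2, with 95% confidence intervals) in BALB/c, C57BL/6, C57BL/6 with crofelemer and B-cell deficient mice for the 21 collagen genes (y axis) called in C57BL/6 or B-cell deficient mice, with filled points for adjusted p under 0.05. Col6a5 lies farthest to the right in C57BL/6 (1.87) and B-cell deficient mice (2.28), and no point is filled in BALB/c or crofelemer-treated mice.

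The effect of MDI differed between B-cell deficient and C57BL/6 mice for 6 of the 42 genes, or 14.3% against 20.3% of all probe sets. It was higher for 1 (2.38%, against 9.27% of all probe sets) and lower for 5 (11.9%, against 11%). Col4a1 was the only one with a higher difference in B-cell deficient mice, by 0.62 ± 0.22 (adjusted p = 0.0368). The lower ones were Col9a3 (-0.99 ± 0.25, adjusted p = 0.00461), Col6a4 (-0.93 ± 0.23, adjusted p = 0.0042), Col2a1 (-0.85 ± 0.22, adjusted p = 0.00519), Col28a1 (-0.55 ± 0.15, adjusted p = 0.00874) and Col4a6 (-0.51 ± 0.16, adjusted p = 0.0218). None of the 6 was called without the 4 narrow control arrays, where 3.24% of all probe sets were. The call of Col4a1 also ended without any one of C57BL/6 controls 2, 4 and 5 or B-cell deficient controls 2, 5 and 6. It ended too without any one of B-cell deficient MDI replicates 2, 3, 5 and 7, and all these values were 0.55 to 0.60. Nor was Col4a1 called after centring (0.53, adjusted p = 0.0606), quantile normalization (0.41, adjusted p = 0.176) or centring with scaling (0.34, adjusted p = 0.209). For the fibrillar and type VI chains that rose in both, the difference between genotypes did not pass the test: -0.15 ± 0.35 for Col1a1 (adjusted p = 0.796), -0.45 ± 0.31 for Col3a1 (adjusted p = 0.295), 0.33 ± 0.28 for Col6a1 (adjusted p = 0.408) and 0.41 ± 0.49 for Col6a5 (adjusted p = 0.573). When arrays were centred and scaled, that of Col3a1 was -1.28 (adjusted p = 0.00174).

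In BALB/c mice no collagen gene was called after MDI by limma, with 3 arrays a group, and 4 had an unadjusted p under 0.05. Of all probe sets 0.302% were called. Col3a1 read 13.14, 12.16 and 12.06 in controls and 13.24, 13.55 and 13.52 after MDI, all above the controls (0.98 ± 0.35, adjusted p = 0.443). Col6a5 read 3.32, 2.96 and 3.77 against 4.68, 4.94 and 4.4, again without overlap (1.32 ± 0.57, adjusted p = 0.69). It is named here after its values were seen. Col1a1 read 10.81, 9.9 and 9.95 against 10.8, 11.11 and 10.9 (0.72 ± 0.41, adjusted p = 0.999), Col6a1 10.4, 10.4 and 9.96 against 10.54, 10.93 and 10.68 (0.46 ± 0.32, adjusted p = 0.999), Col4a1 8.96, 8.97 and 8.33 against 8.59, 8.55 and 8.93 (-0.06 ± 0.25, adjusted p = 0.999) and Col15a1 5.38, 4.74 and 5.18 against 4.43, 4.85 and 5.27 (-0.25 ± 0.27, adjusted p = 0.999). The effect of MDI was not called different from that in C57BL/6 mice for any of the 42 genes, with 1 at an unadjusted p under 0.05 and 0.027% of all probe sets called. The interval of that difference is wide at this number of arrays.

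In C57BL/6 mice given crofelemer, the comparison of MDI with control asked whether the response was there with the channel inhibitor. No collagen gene was called in limma, 7 had an unadjusted p under 0.05, and 0.054% of all probe sets were called. Col1a1 read 14.1, 13.22, 13.33, 13.92 and 13.85 in controls and 13.7, 12.9 and 13.8 after MDI, a difference of -0.22 ± 0.36 with a 95% interval from -0.95 to 0.52. Col3a1 read 15.79, 15.07, 15.43, 15.42 and 15.62 against 15.61, 15.23 and 15.82 (0.09 ± 0.32, interval -0.55 to 0.72). For both genes the MDI arrays lay among or beside the controls.

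Col6a1 read 12.38, 11.27, 12.14, 12.09 and 12.07 against 11.72, 11.92 and 11.85 (-0.16 ± 0.29), Col4a1 10.12, 9.2, 10.38, 9.87 and 9.63 against 9.57, 9.58 and 9.7 (-0.22 ± 0.23), and Col15a1 averaged 5.56 and 5.87 (0.31 ± 0.24). Col6a5, named here after its values were seen, read 3.94 to 4.27 in controls and 4.83, 4.47 and 4.74 after MDI, all above the controls, with a difference of 0.53 ± 0.51 (adjusted p = 0.861).

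Tested directly, the effect of MDI with crofelemer minus that without was called for none of the 42 genes in limma, while 14 had an unadjusted p under 0.05 and 0.423% of all probe sets were called. Col3a1 came nearest, at -1.49 ± 0.38 (interval -2.26 to -0.72, adjusted p = 0.0577), and Col1a1 stood at -1.49 ± 0.44 (interval -2.37 to -0.61, adjusted p = 0.12). Col3a1 was called when arrays were centred on their median or quantile normalized, and without any one of C57BL/6 control replicate 2 or C57BL/6 MDI replicates 2, 6, 11 and 14, with values of -1.69 to -1.54. The median over the 42 genes was -0.27 against 0.02 over all probe sets. The crofelemer controls that enter this difference were themselves high, as described next.

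Between C57BL/6 controls with and without crofelemer, most collagens were higher with crofelemer. Col1a1 was higher by 7.02-fold, Col3a1 by 6.56-fold and Col1a2 by 5.87-fold. Of the 42 genes, 25 were higher (59.5%) and 3 lower (7.14%), against 17.6% and 21.4% of all probe sets (39% called in all), with a median difference of 0.46 against 0.03. Of all called probe sets 45.2% were higher and 64.8% after centring, where 30 collagen genes were higher and 2 lower. Within record block 1 alone 21 were higher and 2 lower, against 32.4% of all probe sets called, with Col1a1 at 2.73 and Col3a1 at 2.61. Whether the 2 sets were normalized apart is not given in the sources used here, so an effect of crofelemer and a difference in how the sets were processed or collected cannot be told apart in this comparison.

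All 5 crofelemer controls lay above all 6 controls without it for Col1a1 (13.22 to 14.1 against 10.38 to 11.42), a difference of 2.81 ± 0.30 (adjusted p = 7.85e-11). The same held for Col3a1 (15.07 to 15.79 against 11.96 to 13.74), with 2.71 ± 0.26 (adjusted p = 3.72e-12). Col1a2 read 14.51, 13.48, 13.88, 14.19 and 13.97 against 10.98, 12.37, 11.4, 11.26, 11.51 and 11.19 (2.55 ± 0.24, adjusted p = 2.95e-12). Of 11 fibrillar chains 8 were higher and none lower.

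Of the 6 basement membrane chains, 4 were higher and 2 lower. Col4a1 was higher by 0.88 ± 0.19 (adjusted p = 0.000153), as was Col4a2, its partner, by 1.26 ± 0.17 (adjusted p = 2.38e-08), named after its values were seen. Col4a5 was lower, at 6.68, 6.61, 7.02, 6.79 and 6.55 against 7.26 to 7.63, by -0.74 ± 0.14 (adjusted p = 3.2e-05), without overlap. Col4a3 was lower by -0.63 ± 0.23 (adjusted p = 0.0252), but stood at 0.064 (adjusted p = 0.872) when arrays were centred and scaled to a common spread, and was not called without crofelemer control replicate 2 (-0.45) or 4 (-0.56) or without C57BL/6 control replicate 6 (-0.54).

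In the other classes, Col6a1 was higher by 1.31 ± 0.24 (adjusted p = 1.19e-05) and 3 of 7 beaded filament chains were higher. Col15a1 was higher by 0.71 ± 0.20 (adjusted p = 0.00347), and so was Col18a1, the other multiplexin, by 1.82 ± 0.25 (adjusted p = 5.66e-08). Of the 9 fibril-associated chains 5 were higher, of the 4 transmembrane chains 2 were higher and 1 lower, and of the 3 network-forming chains 1 was higher. The lower one was Col23a1, at 8.43, 7.95, 8.15, 7.85 and 8.04 against 8.46 to 9.00 (-0.61 ± 0.16, adjusted p = 0.00149). It was not called after quantile normalization (-0.39, adjusted p = 0.0543) or after centring and scaling (-0.32, adjusted p = 0.119). Col6a5, which rose most with MDI, differed by 0.13 ± 0.42 (adjusted p = 0.832).

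**Figure D3:**
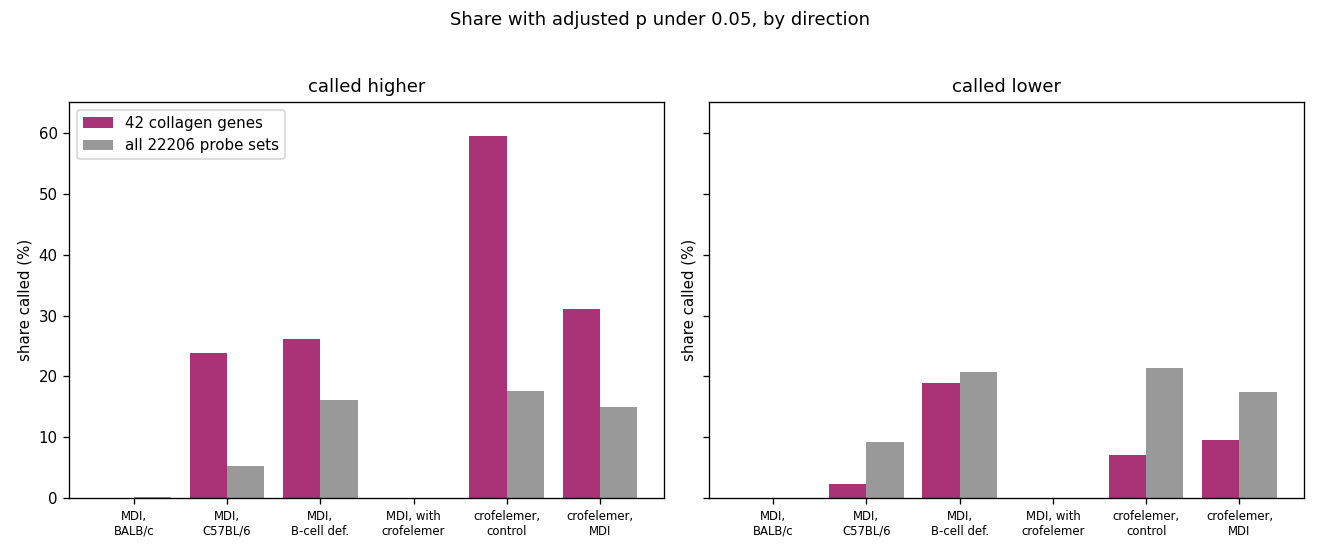
Percent of genes called higher or lower at adjusted p under 0.05 (y axis) among the 42 collagen genes and among all 22206 probe sets, for 6 comparisons (x axis). In C57BL/6 mice after MDI 23.8% of the collagen genes and 5.3% of all probe sets were higher, and between controls with and without crofelemer these shares were 59.5% and 17.6%.

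Among MDI arrays, those with crofelemer had 13 collagen genes higher (31%) and 4 lower (9.52%) than those without, against 15% and 17.5% of all probe sets (32.6% called in all), and a median difference of 0.26 against 0.04. After centring 18 were higher and 2 lower, and 59.4% of all called probe sets were higher against 46.1% before it. Within record block 1 alone 13 were higher and 2 lower, against 30.8% of all probe sets called. Col1a2 differed by 1.71 ± 0.26 (adjusted p = 5.12e-07), Col1a1 by 1.32 ± 0.32 (adjusted p = 0.000935), Col3a1 by 1.22 ± 0.28 (adjusted p = 0.000444), Col4a1 by 0.95 ± 0.20 (adjusted p = 0.000141) and Col15a1 by 0.62 ± 0.21 (adjusted p = 0.0199). For Col1a2 all 3 crofelemer arrays (14.02, 13.55 and 14.22) lay above the 13 others (11.31 to 13.01). Col6a1 differed by 0.34 ± 0.25 (adjusted p = 0.314). Col6a5 was lower, at 4.83, 4.47 and 4.74 against 4.38 to 7.51, by -1.21 ± 0.44 (adjusted p = 0.03), a call that did not hold without any one of the 3 crofelemer arrays (-1.29 to -1.11). Col27a1 (-0.68 ± 0.19, adjusted p = 0.00352) and Col23a1 (-0.47 ± 0.17, adjusted p = 0.0251) were lower as well. Calls here also rested on single crofelemer arrays: that of Col27a1 ended without replicate 3 (-0.55), that of Col23a1 without replicate 1 (-0.50) or 3 (-0.33), and that of Col15a1 without replicate 1 (0.49) or 2 (0.62). Col23a1 was also not called after centring (-0.37, adjusted p = 0.0728), quantile normalization (-0.33, adjusted p = 0.147) or centring with scaling (-0.28, adjusted p = 0.221). For the 3 replicate numbers that both groups hold, deviations of same-numbered arrays correlated weakly (r = 0.17, 0.17 and 0.11). Differently numbered arrays were not compared, so this does not show that the arrays were paired. With the replicate number as a block, which leaves 3 arrays a group, 6 members were called in place of 17 (4 higher and 2 lower) against 9.67% of all probe sets. The calls of Col4a1 (0.82, adjusted p = 0.0691), Col15a1 (0.23, adjusted p = 0.661) and Col23a1 (-0.58, adjusted p = 0.23) ended there. Those of Col1a2 (1.74), Col1a1 (0.94), Col3a1 (1.23), Col6a5 (-1.87) and Col27a1 (-0.86) held. The comparisons with and without MDI here share arrays with the MDI comparisons above.

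**Figure D4:**
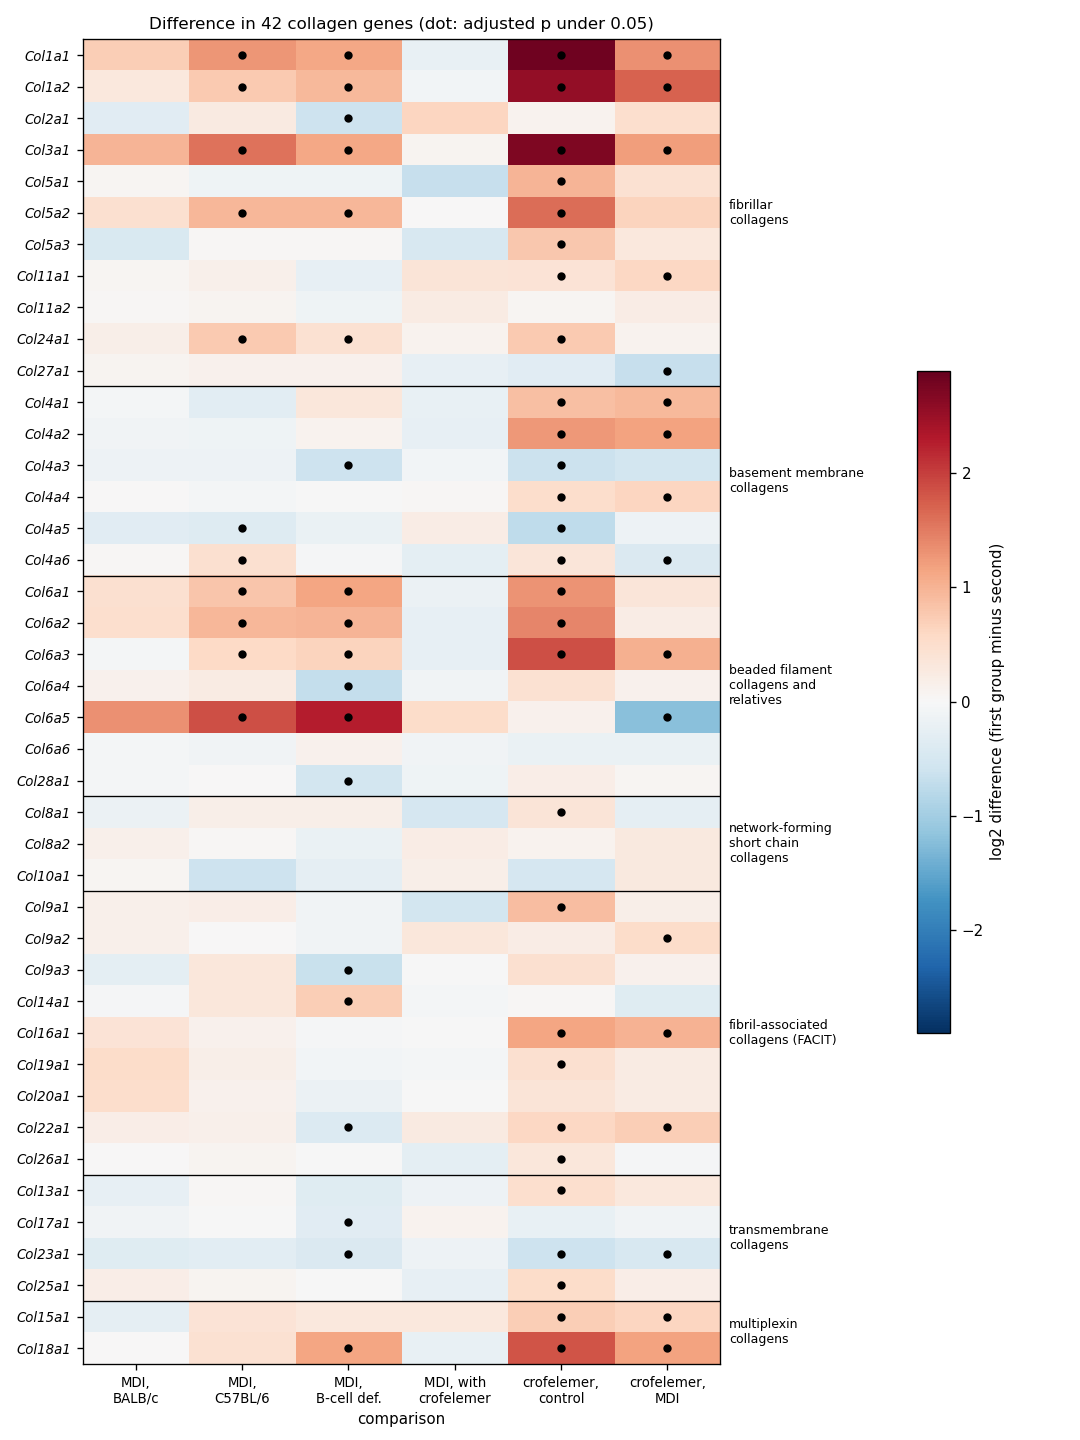
Difference in log2 value (colour) for each of the 42 collagen genes (rows, by class) in 6 comparisons (columns), with a dot where the adjusted p was under 0.05. The column of controls with crofelemer against without holds 28 dots, and the BALB/c and crofelemer MDI columns hold none.

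Other tissue markers differed between control arrays with and without crofelemer. Of all probe sets 21.4% were lower with crofelemer there, 34.5% of those above the median level and 8.29% of those below it. Of 6 cardiac muscle markers 5 were lower in the crofelemer controls, with mean log2 levels of 7.88 to 8.20 against 8.52 to 11.80. All 4 endothelial markers were lower (13.40 to 14.23 against 14.56 to 15.13), as were 5 of 6 alveolar fibroblast markers (11.28 to 12.21 against 12.74 to 12.93) and 5 of 7 adventitial fibroblast markers, of which 1 was higher (10.42 to 10.96 against 11.09 to 11.49). All 3 club cell markers were lower (17.12 to 17.65 against 17.94 to 18.47), as were 3 of 4 alveolar type 2 markers (18.40 to 18.84 against 18.77 to 18.97). The B-cell gene Cd79a read 7.9 to 8.71 against 10.21 to 11.79. The part of these markers in the collagen differences was not tested.

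In the MDI comparisons, markers of several cell types were called beside the collagens. Over all probe sets 5.3% rose and 9.23% fell in C57BL/6 mice, and 16.2% rose and 20.7% fell in B-cell deficient mice. Of 6 alveolar fibroblast markers 4 fell in C57BL/6 and 3 in B-cell deficient mice, and none rose. Of 7 adventitial markers 1 rose in each, and 1 fell in B-cell deficient mice. Of 8 smooth muscle and myofibroblast markers 4 rose in each, and 1 fell in C57BL/6 mice. Actg2 and Acta2, smooth muscle actins, rose by 1.26 ± 0.24 (adjusted p = 0.000182) and 0.73 ± 0.13 (adjusted p = 9.15e-05) in C57BL/6 mice and by 1.37 ± 0.24 (adjusted p = 2.23e-05) and 0.71 ± 0.13 (adjusted p = 5e-05) in B-cell deficient mice. Mean levels of the 8 overlapped between control (10.60 to 11.41) and MDI arrays (10.83 to 11.68) in C57BL/6 mice and less so in B-cell deficient mice (11.77 to 12.34 and 12.29 to 13.02). Of 4 endothelial markers all fell in C57BL/6 and 2 in B-cell deficient mice. Of 3 club cell markers 2 fell in each, and their mean levels overlapped in C57BL/6 mice (17.94 to 18.47 in controls and 17.12 to 18.04 after MDI) but not in B-cell deficient mice (17.87 to 18.47 and 17.17 to 17.66). Of 4 alveolar type 2 markers 1 fell in each, with mean levels that did not overlap in B-cell deficient mice (18.51 to 18.65 and 18.29 to 18.45). Of 3 alveolar type 1 markers 2 fell in C57BL/6 and 1 in B-cell deficient mice. Of 5 pericyte markers 2 and 1 fell. Of 5 mesothelial markers none was called in C57BL/6 mice and 3 fell in B-cell deficient mice (7.91 to 9.11 in controls and 7.68 to 8.30 after MDI). Of 4 leukocyte markers 2 rose in C57BL/6 and all 4 in B-cell deficient mice, where mean levels did not overlap (11.15 to 11.96 and 12.69 to 13.21). The actins are named after their values were seen, and the part of these markers was not tested.

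The genes that act on collagen chains and fibrils moved in both directions. For the counts of this and the next 4 lists, 5.3% of all probe sets rose and 9.23% fell in C57BL/6 mice. In B-cell deficient mice these shares were 16.2% and 20.7%. Of 27 genes of synthesis, folding and crosslinking, 1 rose and 4 fell in C57BL/6 mice, and 6 rose and 4 fell in B-cell deficient mice. P4hb, a subunit of prolyl hydroxylase, rose in both, by 0.47 ± 0.13 (adjusted p = 0.0104) and 0.55 ± 0.13 (adjusted p = 0.00123). Colgalt1, which adds galactose to hydroxylysine, rose in B-cell deficient mice by 1.15 ± 0.18 (adjusted p = 1.67e-06), and Bmp1, the procollagen C-proteinase, by 0.77 ± 0.16 (adjusted p = 0.000148). In C57BL/6 mice these differed by 0.05 ± 0.17 and 0.02 ± 0.15. Pcolce2, an enhancer of that proteinase, fell by 0.67 in both (adjusted p = 0.00164 and 0.00078), and Colgalt2 fell in C57BL/6 mice (-1.08 ± 0.19, adjusted p = 9.42e-05). Plod2, a lysyl hydroxylase, fell in B-cell deficient mice (-0.62 ± 0.15, adjusted p = 0.00103). Serpinh1, the collagen chaperone, did not pass the test in either (-0.26 ± 0.14 and 0.01 ± 0.14) and is named after its values were seen.

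Of 19 proteoglycans and fibril regulators, 2 rose and 5 fell in C57BL/6 mice and 1 rose and 5 fell in B-cell deficient mice. Fn1, fibronectin, rose in both, by 0.74 ± 0.19 (adjusted p = 0.0064) and 1.06 ± 0.20 (adjusted p = 4.63e-05). Postn, periostin, rose in C57BL/6 mice by 0.71 ± 0.16 (adjusted p = 0.00178) and stood at 0.12 ± 0.17 in B-cell deficient mice. Prelp, a leucine-rich proteoglycan of basement membranes, fell in both (-1.04 ± 0.19, adjusted p = 0.000119, and -1.11 ± 0.20, adjusted p = 1.89e-05). Bgn, biglycan, fell in both too (-0.49 ± 0.13, adjusted p = 0.00927, and -0.64 ± 0.14, adjusted p = 0.000253).

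Genes of collagen breakdown held the largest differences around the collagens. Of 19, 5 rose and 5 fell in C57BL/6 mice, and 9 rose and 4 fell in B-cell deficient mice. Mmp12, macrophage metalloelastase, rose by 4.95 ± 0.52 (adjusted p = 6.62e-10) and 6.10 ± 0.53 (adjusted p = 8.87e-13). Ctsk, the collagenolytic cathepsin K, rose by 2.37 ± 0.29 (adjusted p = 8.97e-08) and 3.06 ± 0.30 (adjusted p = 4.3e-11). Timp3, a matrix-bound inhibitor of metalloproteinases, fell in both (-1.16 ± 0.21, adjusted p = 0.000101, and -1.56 ± 0.21, adjusted p = 1.65e-07), as did Reck, a membrane-anchored inhibitor (-0.68 ± 0.13, adjusted p = 0.000261, and -0.69 ± 0.13, adjusted p = 8.81e-05).

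Of 9 collagen receptors, 2 rose and 2 fell in each genotype. Mrc1, a mannose receptor that takes up collagen in macrophages, rose by 1.29 ± 0.19 (adjusted p = 2.6e-06) and 1.32 ± 0.19 (adjusted p = 4.5e-07). The discoidin receptors Ddr1 and Ddr2, kinases that bind collagen, fell in both, Ddr2 by 0.67 and 0.90 (adjusted p = 0.00184 and 1.4e-05) and Ddr1 by 0.68 and 0.49 (adjusted p = 0.00208 and 0.0157). Of 22 fibrogenic signals 4 rose and 3 fell in C57BL/6 mice, and 6 rose and 3 fell in B-cell deficient mice. Igf1 rose by 2.52 ± 0.30 (adjusted p = 2.19e-08) and 2.02 ± 0.30 (adjusted p = 1.06e-06), and Il4, a cytokine of type 2 responses, by 1.20 ± 0.22 (adjusted p = 0.000125) and 2.67 ± 0.23 (adjusted p = 5e-13). Tgfb2 fell in B-cell deficient mice (-1.07 ± 0.17, adjusted p = 4.76e-06). None of these 5 lists had a call in BALB/c mice or in the MDI comparison with crofelemer, where 0.302% and 0.054% of all probe sets were called.

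Across the 8 groups, the type I chains had their highest and lowest mean levels in the same groups. Col1a1 averaged 10.22 in BALB/c controls, 10.94 after MDI, 10.87 in C57BL/6 controls, 12.14 after MDI, 12.01 in B-cell deficient controls, 13.13 after MDI, and 13.68 and 13.47 in crofelemer controls and crofelemer MDI. Col1a2 averaged 11.05, 11.36, 11.45, 12.22, 12.24, 13.17, 14.01 and 13.93 in the same order. In both genes the crofelemer groups were highest and BALB/c controls lowest. Neighbours whose values overlapped included C57BL/6 MDI and B-cell deficient controls (11.29 to 13.13 and 11.29 to 12.81 for Col1a1). Strains are not tested against each other because of the array means given above.

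Within the 13 C57BL/6 MDI arrays, chains that assemble with each other varied together in some pairs. Of 6 pairs compared, Col6a1 and Col6a2 had Pearson's r = 0.94 (permutation p = 1e-05, the smallest that the permutations can give, adjusted p = 6e-05), Spearman's rho = 0.93, and r = 0.90 without the 2 arrays farthest from the median. Col1a1 and Col1a2 had r = 0.80 (adjusted permutation p = 0.00357), rho = 0.86, and r = 0.73 without those 2. Col4a1 and Col4a2 had r = 0.62 (adjusted permutation p = 0.0476), rho = 0.59 (adjusted permutation p = 0.0745), and r = 0.81 without those 2. For Col4a3 and Col4a4 r was 0.42, for Col5a1 and Col5a2 0.28, and for Col8a1 and Col8a2 -0.24, with adjusted permutation p = 0.224, 0.423 and 0.437. Record block 1 held 12 of the 13 arrays. Chains measured on 1 array share its RNA and its processing. Chains of different collagen types were not correlated here, so these values do not show that varying together is particular to chains that assemble.

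**Figure D5:**
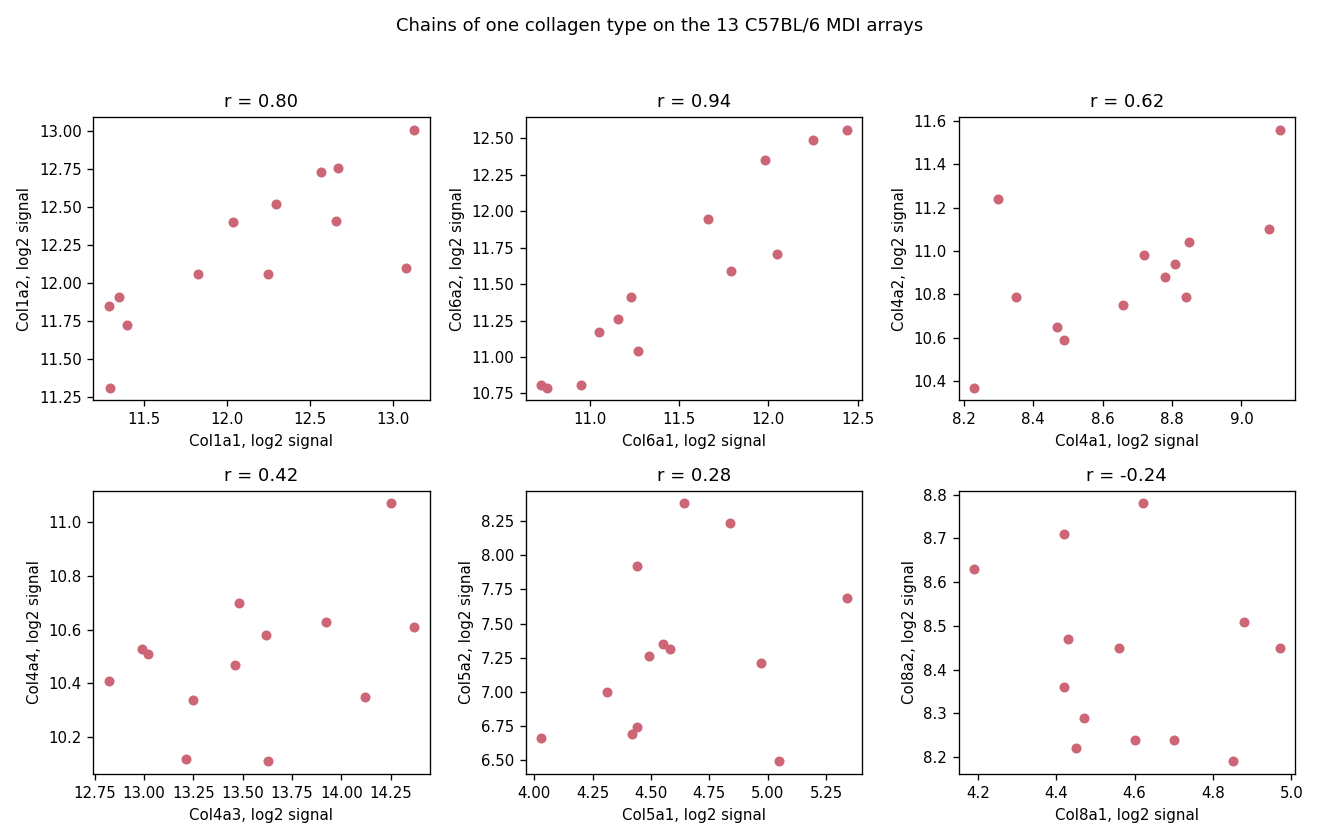
Deposited log2 values of both chains (x and y axes) for 6 pairs of collagen chains on the 13 C57BL/6 MDI arrays, 1 point an array. The points of Col6a1 and Col6a2 follow a line (r = 0.94), and those of Col8a1 and Col8a2 do not (r = -0.24).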

How the data were processed

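Values for 51 arrays were deposited by the authors as log2 signals of 22206 probe sets, made with Transcriptome Analysis Console per the submitters' processing notes. Neither its version nor its normalization is given in the sources used here, and the log base was inferred from the range (1.86 to 20.91). The largest value lies above the log2 of a 16-bit reading, so folds hold for the deposited scale. No value was rescaled. The number of arrays limits the precision.

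Probe sets were named from the annotation supplied with the platform, and a symbol with several probe sets (55, none a collagen gene) was read from the one with the highest mean. The 49 assigned arrays entered 1 limma 3.58.1 model in R 4.3.3 with 8 group means (41 residual degrees of freedom) and an intensity trend. Tests were 2-sided, Benjamini-Hochberg adjusted over all probe sets, and called at an adjusted p under 0.05. Correlations used 100000 permutations (scipy 1.17.1), adjusted over 6 pairs. Plots used matplotlib 3.10.9 (Python 3.11.15). The fit was first tested on simulated data.

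The collagen genes, their classes and the other lists were chosen with earlier results of these data known. The naming rule took up to 5 called rises and 5 falls in each MDI comparison, up to 3 of each in the others, Col1a1, Col3a1, Col4a1, Col6a1 and Col15a1 everywhere, and up to 4 genes of each other pathway list by adjusted p. Col7a1 and Col12a1 were not analysed here. Alternatives covered scaling, filtering, array weights, record blocks, the replicate block and each array left out. Replicate numbers come from the sample titles. The deviations of 27 same-numbered pairs from their group means correlated at -0.26 to 0.18, over 0.1 in 10. All pairs of a comparison passed 0.1 only for MDI arrays with and without crofelemer (0.17, 0.17 and 0.11), which the labels do not tie to a shared day or litter.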

Additional observations from a re-analysis of the deposited data

Results flagged for a closer look

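Single arrays stood apart from their group in 4 of 72 combinations of gene and group of 4 to 10 arrays, and about 1 in 20 would by chance. Col6a1 read 11.21 on C57BL/6 control replicate 2, with the nearest other control at 10.64, and 11.27 on crofelemer control replicate 2, with the nearest at 12.07. Col4a3 read 14.16 on C57BL/6 control replicate 6, where the other controls read 13.6 to 13.63. Col6a4 read 5.64 on crofelemer control replicate 1, with the nearest at 4.98. C57BL/6 control replicate 2 was also the highest control for Col1a1, Col1a2, Col3a1, Col5a2, Col6a2 and Col6a3.

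The effect of MDI differed between B-cell deficient and C57BL/6 mice for 6 genes by the test of the difference itself: Col9a3 (-0.99), Col6a4 (-0.93), Col2a1 (-0.85), Col28a1 (-0.55), Col4a6 (-0.51) and Col4a1 (0.62). The adjusted p-values are in the results above, and no call among these held without the 4 narrow control arrays.

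The 2 arrays with contradicting labels read above the highest C57BL/6 control for most of the chains looked at. Array 1, whose title names MDI with crofelemer and whose other labels name none, read 12.87 for Col1a1, 15.09 for Col3a1, 11.61 for Col6a1 and 9.48 for Col4a1. Array 2, with the contradiction the other way round, read 12.81 for Col1a1, 14.94 for Col3a1 and 11.72 for Col6a1. The highest C57BL/6 controls read 11.42, 13.74, 11.21 and 9.31 for Col1a1, Col3a1, Col6a1 and Col4a1.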

How the results depend on the processing

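Under the alternatives, named collagen genes kept their direction and side of the threshold in 1853 cases, lost a call in 75, gained one in 14, moved without a call in 18 and turned in 1, Col4a3 between controls with and without crofelemer (0.064 when arrays were centred and scaled to a common spread). The number of called collagen genes ranged, with each array left out in turn, from 9 to 12 for MDI in C57BL/6, 16 to 19 in B-cell deficient, 0 in BALB/c and 0 in crofelemer-treated mice, 22 to 27 and 12 to 20 for crofelemer without and with MDI, 0 to 1 for the difference by crofelemer, 0 for BALB/c and 5 to 7 for B-cell deficiency. The count was 1 for BALB/c with only the groups of the comparison. With only probe sets above the median level it was 17 and 10 for crofelemer without and with MDI and 3 for B-cell deficiency, where fewer genes were tested. Centring and quantile normalization each gave 1 for the difference by crofelemer, and centring and scaling gave 12 for B-cell deficiency. Without the narrow control arrays it was 10 for MDI in B-cell deficient mice and 0 for B-cell deficiency. In record block 3 alone it was 0 for MDI in C57BL/6 mice and 8 for crofelemer without MDI, with fewer samples. Except where fewer genes or samples explain it by construction, the cause was not tested. Centring with scaling and leaving out the narrow control arrays were chosen after seeing the data.

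With the replicate block the count was 1 for BALB/c, 6 for C57BL/6 and 6 for crofelemer with MDI. The replicate numbers met the criterion for pairing only in the last of these. For the other two the block is a value for arrays that share only a number.

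Centring moved the median difference over all probe sets to -0.11 for B-cell deficient mice, 0.19 and 0.14 for crofelemer without and with MDI, and -0.11 for B-cell deficiency. Median levels of the collagen genes relative to the array median were -0.49 and -0.39 in BALB/c control and MDI, -0.52 and 0.045 in C57BL/6, 0.11 and 0.13 in crofelemer-treated C57BL/6, and 0.17 and 0.25 in the B-cell deficient strain. Spearman's rho of Col4a1 and Col4a2, 0.59, missed the threshold. Without C57BL/6 MDI replicate 14, r was 0.79 for Col1a1 and Col1a2, 0.86 for Col4a1 and Col4a2, 0.50 for Col4a3 and Col4a4, 0.15 for Col5a1 and Col5a2, 0.95 for Col6a1 and Col6a2 and -0.23 for Col8a1 and Col8a2. The labels give no signal over background, so dim chains such as Col24a1 and Col6a5 have no stated detection limit.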

Other observations

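For other chains the 2 arrays with contradicting labels read 13.45 and 12.94 for Col1a2, 4.81 and 4.6 for Col6a5, 4.98 and 4.99 for Col15a1 and 9.11 and 8.6 for Col18a1, array 1 first. In C57BL/6 mice Col1a2 read 10.98 to 12.37 in controls and 11.31 to 13.01 after MDI, and with crofelemer 13.48 to 14.51 and 13.55 to 14.22.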
